A study of Mus musculus with 6 samples.

Results

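The sarcomere and Z-disc genes described here are 34 genes that build or assemble the contractile unit of heart muscle, chosen by name and found in the table by their Ensembl identifiers. All 34 were present among its 54532 rows, and all 34 passed the filter on low counts. They comprised 6 thick filament genes, titin, 8 thin filament genes, 14 Z-disc genes, 3 M-band genes and 2 SMYD methyltransferases. RNA was measured in mouse hearts at day 14 after myocardial infarction, with 3 libraries of WT mice (genotype wild type) and 3 of mice without the atypical chemokine receptor ACKR4 (genotype ACKR4-KO, group ACKR4_KO). All mice were C57BL/6 and 8 to 10 weeks old, and all had an infarct. The labels do not state how the knockout allele was made, in which cells it is lost, or which part of the heart was sampled.

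In the sarcomere, thick filaments of myosin slide along thin filaments of actin, and calcium binding to troponin on the thin filament permits the movement. Z-discs anchor the thin filaments, M-bands hold the thick filaments in register, and titin spans from one to the other as a spring. In the heart most of these genes, though not all, are transcribed mainly in cardiomyocytes. After an infarct a scar made by fibroblasts replaces the muscle that was lost.

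The libraries held between 9422462 and 13910358 reads. Ackr4, the targeted gene, was at 12.8, 15.5 and 11.6 CPM (reads per 1000000, with library sizes scaled by the TMM method of edgeR) in WT replicates 1, 2 and 3 and at 0.323, 0.102 and 1.05 CPM in the ACKR4_KO replicates, so it was low in every library labelled as knockout. Of the 8 genes in the atrial list, 3 were at or near 0, with Bmp10 at 0 reads, Myl7 at no more than 0.262 CPM and Sln at no more than 2.62 CPM in any library. Myl4 was at 1.24 to 10.5 CPM, Stard10 at 21.6 to 45.7 CPM, Dkk3 at 27.7 to 131 CPM, Nppa at 234 to 1059 CPM and Clu at 588 to 1959 CPM, while the ventricular light chain Myl2 was at 3726 CPM or more in each. Genes of lung epithelium summed to 266, 43.1 and 129 CPM in WT and to 0.404, 0.922 and 1.92 CPM in ACKR4_KO, with Sftpc and Slc34a2 at 0 in every ACKR4_KO library, and fast skeletal muscle genes to 46.3, 194 and 245 CPM in WT and to 26.9, 49.3 and 75.8 CPM in ACKR4_KO. Of the lung genes 7 of 10 were tested and 7 of 7 were lower in ACKR4_KO. Of the fast skeletal genes 8 of 12 were tested and 7 of 8 were lower, with Tnnc2 at 0 in every library. The part of such RNA in the results was not tested.

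The promoters of 5 genes are shown because these stand for the parts of the sarcomere described next, which are the myosin motor Myh6, the essential light chain Myl3, cardiac actin Actc1, the calcium sensor Tnnc1 and titin. Each is the 250 bases upstream of a RefSeq transcription start on GRCm38.p6, written 5′ to 3′ on the strand of the gene. They lie at chr14:54966608-54966857 (minus strand) for Myh6, chr9:110763428-110763677 (plus strand) for Myl3, chr2:114052876-114053125 (minus strand) for Actc1, chr14:31208062-31208311 (plus strand) for Tnnc1 and chr2:76982548-76982797 (minus strand) for Ttn. Capitals mark letters that match the M-CAT element of TEAD factors (CATTCC on either strand), the CArG box of SRF, or the MEF2 element.
Myh6: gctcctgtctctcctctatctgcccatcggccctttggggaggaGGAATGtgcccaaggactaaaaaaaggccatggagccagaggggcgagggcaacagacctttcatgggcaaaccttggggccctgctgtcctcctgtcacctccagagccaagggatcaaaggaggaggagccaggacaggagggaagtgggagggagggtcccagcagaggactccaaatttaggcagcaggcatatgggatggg
Myl3: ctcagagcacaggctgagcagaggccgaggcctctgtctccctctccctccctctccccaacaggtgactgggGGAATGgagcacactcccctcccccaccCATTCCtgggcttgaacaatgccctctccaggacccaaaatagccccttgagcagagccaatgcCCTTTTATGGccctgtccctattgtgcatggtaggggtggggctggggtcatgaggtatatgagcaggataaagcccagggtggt
Actc1: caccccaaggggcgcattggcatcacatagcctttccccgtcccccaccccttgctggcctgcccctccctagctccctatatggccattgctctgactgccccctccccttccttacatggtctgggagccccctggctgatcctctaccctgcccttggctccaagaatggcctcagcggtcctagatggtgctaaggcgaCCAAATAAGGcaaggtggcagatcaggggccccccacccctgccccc
Tnnc1: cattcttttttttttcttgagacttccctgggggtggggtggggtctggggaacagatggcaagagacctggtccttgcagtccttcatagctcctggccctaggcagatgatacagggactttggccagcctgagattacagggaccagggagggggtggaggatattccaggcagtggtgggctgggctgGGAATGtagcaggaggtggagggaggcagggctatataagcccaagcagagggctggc
Ttn: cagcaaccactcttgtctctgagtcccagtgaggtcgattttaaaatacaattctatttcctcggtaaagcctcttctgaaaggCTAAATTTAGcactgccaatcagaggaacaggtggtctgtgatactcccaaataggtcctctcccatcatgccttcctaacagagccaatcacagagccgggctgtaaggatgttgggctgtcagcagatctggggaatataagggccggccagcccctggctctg
An M-CAT match began 206 bases upstream of the start in Myh6, 177 and 149 bases upstream in Myl3 and 58 bases upstream in Tnnc1. The CArG matches began 47 bases upstream in Actc1 and 85 bases upstream in Myl3, and the MEF2 match in Ttn began 166 bases upstream. RefSeq promoters were matched for 31 of the 34 genes, with 45 promoters in all. Of these, 22.2% held an M-CAT match, against 12.6% of all 32851 promoters of the same length. A CArG match was found in 17.8% of them against 1.47% of all promoters, and a MEF2 match in 17.8% against 2.92%. The CArG and MEF2 patterns each read the same on both strands, and no stretch can match both. In Fhl2 a CArG and a MEF2 match each began 31 bases upstream, of different RefSeq starts. A match describes letters only, and no binding was measured.

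The level of the genes was compared per length, as CPM per kilobase of annotated exon, here in WT. For every gene the length joins the exons of all annotated isoforms, so the order of the genes depends on the annotation. Tnnt2, at 4018 CPM in WT, was divided by 7752 bases, and Actc1, at 5961 CPM, by 1618 bases. Actc1 stood highest, at 3684 ± 681 CPM per kilobase (mean ± SD, n = 3), which placed it at rank 9 among the 14406 genes tested. The light chains Myl2 and Myl3 followed at 2158 ± 266 and 2136 ± 243, and did not differ from each other beyond their spread. Myh6 was at 1364 ± 211, Tnni3 at 1228 ± 125, Tnnc1 at 1138 ± 160 and Tcap at 1042 ± 118, neighbours whose ranges of 1 SD overlap. In all, 12 of the 34 genes were among the 100 highest per length. Titin was at 7.9 ± 1.35 CPM per kilobase, a value that divides by the 116825 exonic bases of all its annotated isoforms together. The lowest were Myh7b at 4.27 ± 0.298 and Myom3, a myomesin found at low levels in adult mouse heart, at 0.698 ± 0.0686.

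**Figure D1:**
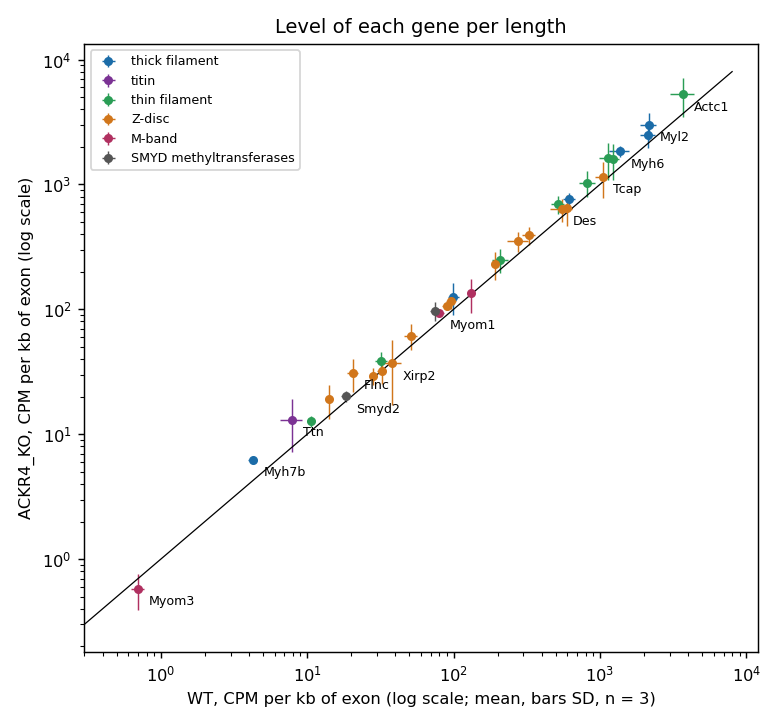
Level of each of the 34 genes per kilobase of exon in WT (x axis) and ACKR4_KO (y axis), both on log scales, with points for group means, bars for the SD (n = 3) and a line of equality. Most points lie slightly above the line, and the order of levels is nearly the same in both groups, from Myom3 near 0.698 CPM per kilobase to Actc1 at 3684 in WT.

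The comparison of ACKR4_KO with WT asked whether the RNA of the contractile unit differs in the infarcted heart without ACKR4. By edgeR's quasi-likelihood test, 0 of the 34 genes passed an adjusted p of 0.05, and 0 of all 14406 genes passed (0% called, with 1073 genes at an unadjusted p under 0.05). Ackr4 itself, with a log2 fold change of -4.7, had an adjusted p of 0.099 in this test and was not called either. DESeq2 on the same genes called 0 of the 34 and 0.271% of all genes. The fitted log2 fold change was above 0 in 31 of the 34 genes, against 52% of all genes tested, and its median was 0.26 against 0.012 over all genes. Genes of at least 100 CPM, the range in which 31 of the 34 lie, had a median of 0.086 and 65% above 0. At an unadjusted p under 0.05 there were 4 of the 34 (Myh7b, Ttn, Flnc and Smyd1), all higher in ACKR4_KO, where the share of all genes was 3.81% in that direction and 3.64% in the other. In 10 of the 34 every ACKR4_KO library lay above every WT library (6.53% of all genes), and in 0 every one lay below (7.63%). That count of 4 was 11 without ACKR4_KO replicate 1 and 8 without ACKR4_KO replicate 3, where the count over all genes went from 1073 to 1906 and 1846. Without ACKR4_KO replicate 2 there were 4 of the 34 and 985 of all genes. With WT replicate 1, 2 or 3 left out there were 2, 1 and 1 of the 34, against 620, 669 and 478 of all genes. The count also depended on the method. DESeq2 gave 11 of the 34 (973 of all genes), edgeR without the filter on low counts 10 (1521) and limma-voom 3 (1078). On GRCm38, Myh7b lies at chr2:155611212-155634307 (plus strand), Ttn at chr2:76703980-76982547 (minus strand), Flnc at chr6:29433256-29461883 (plus strand) and Smyd1 at chr6:71213940-71322233 (minus strand), and the 34 genes are spread over 13 chromosomes.

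**Figure D2:**
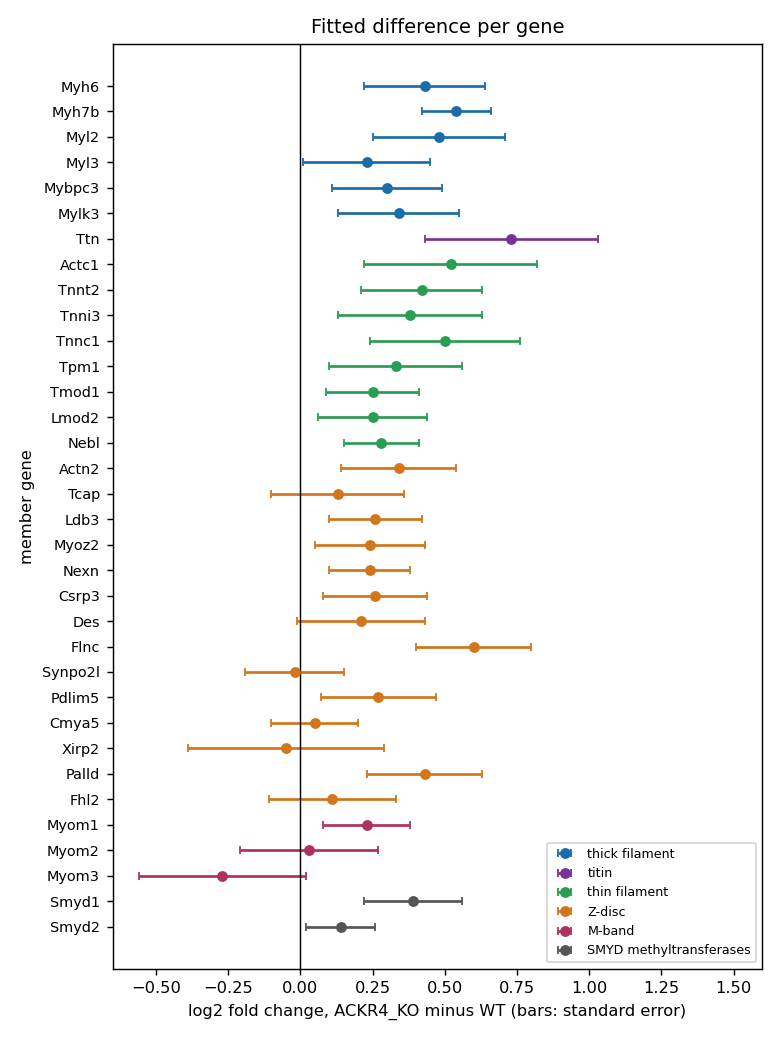
Fitted log2 fold change of each gene, ACKR4_KO minus WT (x axis), with bars for the standard error, coloured by class. The points of the thick and thin filament genes lie between 0.23 and 0.54, the Z-disc genes between -0.05 and 0.60, and Myom3 is the lowest at -0.27.

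Reads of the 34 genes together made up 5.47%, 6.08% and 4.90% of the counts in WT replicates 1, 2 and 3 and 5.72%, 7.03% and 7.09% in the ACKR4_KO replicates. The ACKR4_KO library of replicate 1 was thus within the WT range, and the other two were above it. In CPM, 20 of the 34 genes were highest in ACKR4_KO replicate 2, 12 in ACKR4_KO replicate 3 and 2 in ACKR4_KO replicate 1, while 22 were lowest in WT replicate 3. The TMM factor was 0.891 for ACKR4_KO replicate 2 and 1.01 for ACKR4_KO replicates 1 and 3. This scaling raises the CPM of replicate 2 relative to its share of reads, and the counts of highest libraries rest on it. By class, ACKR4_KO replicate 2 was the highest library for 5 of 6 thick filament genes and 5 of 8 thin filament genes, whereas the 14 Z-disc genes were divided evenly, 7 and 7, between ACKR4_KO replicates 2 and 3. The summed fibroblast and matrix genes were 11357, 12738 and 12170 CPM in WT and 10603, 4363 and 15343 CPM in ACKR4_KO. The 2 knockout libraries with the most sarcomere RNA thus had the lowest and the highest of these sums. The list was divided in ACKR4_KO replicate 3. There Col1a1, Col1a2, Postn, Fn1 and Tcf21 were above every WT library, Dcn, Lum, Dpt and Pdgfra were below every one, and Col3a1 was within the WT range. Of these 10 fibroblast and matrix genes 8 had a fold change below 0, and none was at 0 reads throughout. In whole tissue, more cardiomyocytes and more RNA per cardiomyocyte cannot be told apart, and the part of the tissue makeup in these values was not tested.

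**Figure D3:**
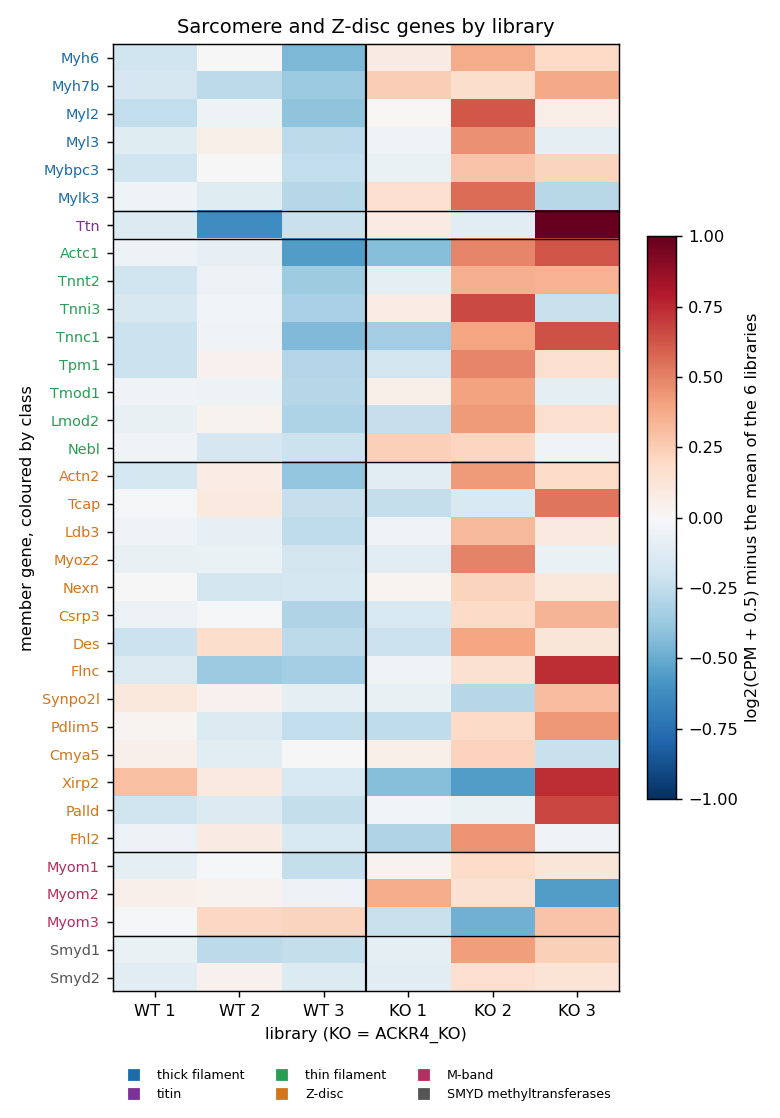
Deviation of each gene's log2(CPM + 0.5) from its mean over the 6 libraries, with genes as rows, grouped and coloured by class, and libraries as columns, on a colour scale that ends at -1 and 1. ACKR4_KO replicates 2 and 3 are mostly red, WT replicate 3 is mostly blue, and ACKR4_KO replicate 1 is pale for most genes.

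The 6 thick filament genes had a median log2 fold change of 0.38, with 6 of 6 above 0. Myh6, the myosin heavy chain of the adult mouse ventricle, was at 9211, 10579 and 7741 CPM in WT and at 11200, 13677 and 12185 CPM in ACKR4_KO. The groups did not overlap, and the log2 fold change was 0.43 (standard error 0.21, edgeR adjusted p = 0.683). Myh7b, a slow-type myosin heavy chain present at a low level in heart, was at 30.3, 28.4 and 26.3 CPM in WT and 40.5, 38.5 and 44.6 CPM in ACKR4_KO. All 3 knockout libraries lay above all 3 WT libraries, with a coefficient of variation of 6.99% in WT and 7.54% in ACKR4_KO. Its log2 fold change of 0.54 (standard error 0.12) came with the smallest p of the 34 genes, 0.00141 unadjusted and 0.598 adjusted by edgeR's quasi-likelihood test, and it lay between 0.49 and 0.59 with any 1 library left out.

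Myl2, the ventricular regulatory light chain, was at 4144, 4757 and 3726 CPM in WT and 4970, 7549 and 5137 CPM in ACKR4_KO. The groups did not overlap, though replicate 2 stood far above the other 2 knockout libraries (log2 fold change 0.48, standard error 0.23, edgeR adjusted p = 0.682). Its partner Myl3, the ventricular essential light chain, was at 4318, 4886 and 3896 CPM in WT and 4558, 6433 and 4379 CPM in ACKR4_KO. The groups overlapped, and the log2 fold change of 0.23 went to 0.04 without ACKR4_KO replicate 2. Myl3 lies on chromosome 9, as does Tpm1, at 6.61 and 37.0 Mb from Ackr4. Mybpc3, the cardiac myosin-binding protein C that links thick filaments to their regulation, had a log2 fold change of 0.30. Mylk3, the kinase that phosphorylates the regulatory light chain, had 0.34, with 699 CPM in ACKR4_KO replicate 2 against 532 and 391 CPM in replicates 1 and 3. The class median was 0.25 without ACKR4_KO replicate 2.

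Titin had the highest fold change of the 34. Ttn, the spring and ruler of the sarcomere, was at 1044, 744 and 981 CPM in WT and 1212, 1061 and 2322 CPM in ACKR4_KO. The groups did not overlap, but ACKR4_KO replicate 3 was far above the other 2. The log2 fold change was 0.73 (standard error 0.30, edgeR adjusted p = 0.664), and 0.30 without ACKR4_KO replicate 3.

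The 8 thin filament genes had a median of 0.36, with 8 of 8 above 0. Actc1, cardiac alpha-actin, was at 6663, 6529 and 4692 CPM in WT and at 5161, 9703 and 10703 CPM in ACKR4_KO. Knockout replicate 1 was within the WT range, and replicates 2 and 3 were above it (log2 fold change 0.52, standard error 0.30, edgeR adjusted p = 0.705). Troponin T, Tnnt2, which ties the troponin complex to tropomyosin, was at 4025, 4427 and 3601 CPM in WT and 4348, 5890 and 5879 CPM in ACKR4_KO. Replicate 1 of the knockouts was within the WT range (log2 fold change 0.42). Tnnc1, the calcium-binding troponin, was at 1190, 1349 and 1015 CPM in WT and 1084, 1811 and 2146 CPM in ACKR4_KO, and replicate 1 was again within the WT range (log2 fold change 0.50). Tnni3, the inhibitory troponin, was at 2540, 2787 and 2272 CPM in WT and 2995, 4491 and 2436 CPM in ACKR4_KO, so here it was replicate 3 that stayed within the WT range (log2 fold change 0.38, and 0.10 without ACKR4_KO replicate 2).

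Nebl, which encodes the nebulette that links thin filaments to the Z-disc, was the single thin filament gene without overlap, at 173, 158 and 153 CPM in WT and 209, 206 and 173 CPM in ACKR4_KO. WT replicate 1 and ACKR4_KO replicate 3 were equal at the precision printed, so this separation is a narrow one (log2 fold change 0.28, standard error 0.13). Tropomyosin, Tpm1, had a log2 fold change of 0.33 over 5327 ± 653 CPM in WT. Tmod1, which caps the pointed ends of thin filaments, and Lmod2, which lengthens them, had 0.25 each. Of the exonic bases of Tmod1, 32.6% are shared with Tstd2 on the other strand, which was at 9.86 to 14.8 CPM, and the strand setting of the counting was not given in the sources used here. The class median was 0.20 without ACKR4_KO replicate 2.

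The 14 Z-disc genes had a median of 0.24, with 12 above 0 and 2 below. Des, desmin, the intermediate filament that ties Z-discs together and the class's most abundant RNA in CPM, was at 1885, 2480 and 1825 CPM in WT and 1894, 2885 and 2388 CPM in ACKR4_KO. The groups overlapped (log2 fold change 0.21). Flnc, filamin C, an actin crosslinker at Z-discs and cell borders, was at 212, 182 and 185 CPM in WT and 227, 260 and 390 CPM in ACKR4_KO. All knockout libraries lay above all WT libraries, with replicate 3 the highest (log2 fold change 0.60, standard error 0.20, edgeR adjusted p = 0.661, and 0.34 without that library). Palld, palladin, an actin-associated scaffold that fibroblasts and smooth muscle also make, was at 145, 151 and 141 CPM in WT and 163, 159 and 265 CPM in ACKR4_KO. The WT libraries differed by little, with a coefficient of variation of 3.36%, and the fold change of 0.43 on the log2 scale was 0.15 without ACKR4_KO replicate 3. Nexn, nexilin, an actin-binding Z-disc protein, was at 377, 332 and 333 CPM in WT and 384, 440 and 405 CPM in ACKR4_KO, without overlap and with a similar spread in both groups (log2 fold change 0.24).

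Xirp2, an actin-binding protein of Z-discs and intercalated discs, was the farthest below 0, at 527, 457 and 385 CPM in WT and 319, 290 and 716 CPM in ACKR4_KO. Replicates 1 and 2 of the knockouts lay below all WT libraries and replicate 3 above all of them, which gave a log2 fold change of -0.05 (standard error 0.34). Without ACKR4_KO replicate 3 it was -0.58, and without replicate 2 it was 0.18, the widest such range among the 34 genes. Synpo2l, an actin-associated Z-disc protein, averaged 151 ± 10.5 CPM over the WT libraries and 149 ± 31.9 CPM over the knockout libraries (SD, n = 3 each; log2 fold change -0.02). Ldb3, a PDZ and LIM protein that binds alpha-actinin, did not overlap between the groups, at 626, 606 and 538 CPM in WT and 627, 804 and 687 CPM in ACKR4_KO, although WT replicate 1 and ACKR4_KO replicate 1 were nearly equal.

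The remaining Z-disc genes overlapped. Actn2, the alpha-actinin that crosslinks thin filaments, had a log2 fold change of 0.34, Pdlim5, a PDZ and LIM scaffold, 0.27, Csrp3, the muscle LIM protein, 0.26, and Myoz2, a calcineurin-binding protein, 0.24. Tcap, the telethonin that caps titin, was at 1005, 1090 and 868 CPM in WT and 861, 915 and 1474 CPM in ACKR4_KO, so replicate 3 alone placed its log2 fold change of 0.13 above 0, and without it the value was -0.15. Fhl2, a LIM protein that binds titin, had 0.11 and turned to -0.12 without ACKR4_KO replicate 2. Cmya5, the costameric protein myospryn, had 0.05 and turned to -0.05 without the same library. An antisense gene shares 20.7% of the exonic bases of Cmya5, and it was at 0 CPM in every library.

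The 3 M-band genes had a median of 0.03, and its sign turned under several alternatives. Myom1, the general striated muscle myomesin, was at 846, 894 and 765 CPM in WT and 925, 1027 and 981 CPM in ACKR4_KO. The groups did not overlap, and its spread was small in both (log2 fold change 0.23, standard error 0.15, edgeR adjusted p = 0.732). Myom2, the myomesin of fast fibres and of the adult heart in mice, was at 1194, 1180 and 1106 CPM in WT and 1488, 1279 and 781 CPM in ACKR4_KO. The 3 WT libraries were nearly equal, while 2 knockout libraries were above and 1 below them (log2 fold change 0.03). Myom3 had 25 to 65 reads per library, at 3.73, 4.42 and 4.48 CPM in WT and 3.15, 2.56 and 4.71 CPM in ACKR4_KO. ACKR4_KO replicate 3 was the highest and replicate 2 the lowest of all 6, and the log2 fold change was -0.27 (standard error 0.29).

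Smyd1 encodes a muscle methyltransferase needed for assembly of the thick filament. It was at 367, 321 and 325 CPM in WT and 361, 513 and 454 CPM in ACKR4_KO. ACKR4_KO replicate 1 was within the WT range and the other 2 were above it, with a log2 fold change of 0.39 (standard error 0.17, edgeR adjusted p = 0.664). Smyd2, a methyltransferase of the same family that acts on cytoplasmic proteins, was at 48.2, 53.4 and 47.3 CPM in WT and 48.3, 58.5 and 57.1 CPM in ACKR4_KO, with a log2 fold change of 0.14. Of its exonic bases 30.0% are shared with the antisense gene Gm37422, which was at 0.514 to 1.78 CPM.

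The classes were also compared by the mean deviation of their members' log2(CPM + 0.5) from the mean of the 6 libraries. For the thick filament this score was -0.162, -0.061 and -0.337 in WT and 0.067, 0.411 and 0.082 in ACKR4_KO, so the groups did not overlap. For the thin filament it was -0.123, -0.043 and -0.347 in WT and -0.113, 0.429 and 0.197 in ACKR4_KO. For the Z-disc it was -0.035, -0.038 and -0.216 in WT and -0.135, 0.143 and 0.281 in ACKR4_KO, and in both of these classes ACKR4_KO replicate 1 was within the WT range. For the M-band it was -0.017, 0.077 and -0.025 in WT and 0.060, -0.046 and -0.050 in ACKR4_KO, with the groups interleaved. The difference between the group means was 0.373 for the thick filament, 0.342 for the thin filament, 0.193 for the Z-disc and -0.024 for the M-band. The M-band score gave equal weight to 3 genes. Their log2 fold changes were 0.23 for Myom1, 0.03 for Myom2 and -0.27 for Myom3, which had only 25 to 65 reads per library. The class scores describe the chosen genes and were given no test.

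Ratios between partner genes within a library do not depend on library size. Myl2 per Myl3, both taken as CPM per kilobase, was 1.01, 1.02 and 1.00 in WT and 1.14, 1.23 and 1.23 in ACKR4_KO. The regulatory light chain was thus higher relative to the essential one in all 3 knockout libraries, with means of 1.01 ± 0.00964 and 1.2 ± 0.0501 (SD, n = 3 each). With 3 against 3 libraries an exact permutation test cannot go below p = 0.1, and none was used for ratios. Among the 465 pairs formed by the 31 genes of at least 100 CPM, the ratio did not overlap between the groups in 6.45%, against 18.9% of the pairs of all genes at that level. The pair Myl2 and Myl3 was 1 of 30 such pairs, and pairs that share a gene are not independent.

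The troponin ratios were tight in WT and spread in ACKR4_KO. Tnnt2 per Tnni3 was 0.422, 0.423 and 0.422 in WT and 0.386, 0.349 and 0.642 in ACKR4_KO, so the knockout values lay on both sides. Tnnc1 per Tnni3 was 0.929, 0.959 and 0.886 in WT and 0.717, 0.799 and 1.75 in ACKR4_KO, with replicate 3 again the high one. In the M-band, Myom1 per Myom2 was 0.60, 0.642 and 0.586 in WT and 0.526, 0.680 and 1.06 in ACKR4_KO. Over the 465 pairs the median SD of the log2 ratio was 0.125 in WT and 0.356 in ACKR4_KO, close to the 0.137 and 0.334 of all abundant pairs.

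The adult forms of the 2 main filament proteins were also set against a fetal and a skeletal form. Myh6 per Myh7, the myosin heavy chain of the fetal ventricle, was 7.82, 15.2 and 11.1 in WT and 8.55, 50.8 and 17.4 in ACKR4_KO, so the groups overlapped and ACKR4_KO replicate 2 stood apart. Myh7 itself was at 345 CPM in that library and at 1679 and 898 CPM in the other knockout libraries. Actc1 per Acta1, the skeletal alpha-actin, was 9.13, 8.11 and 7.13 in WT and 25.8, 12.9 and 9.74 in ACKR4_KO, without overlap. Acta1 was at 190 CPM in ACKR4_KO replicate 1, against 625 to 764 CPM in WT. Both pairs are close relatives in sequence, so reads that fit both members of a pair make their levels and ratios uncertain.

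**Figure D4:**
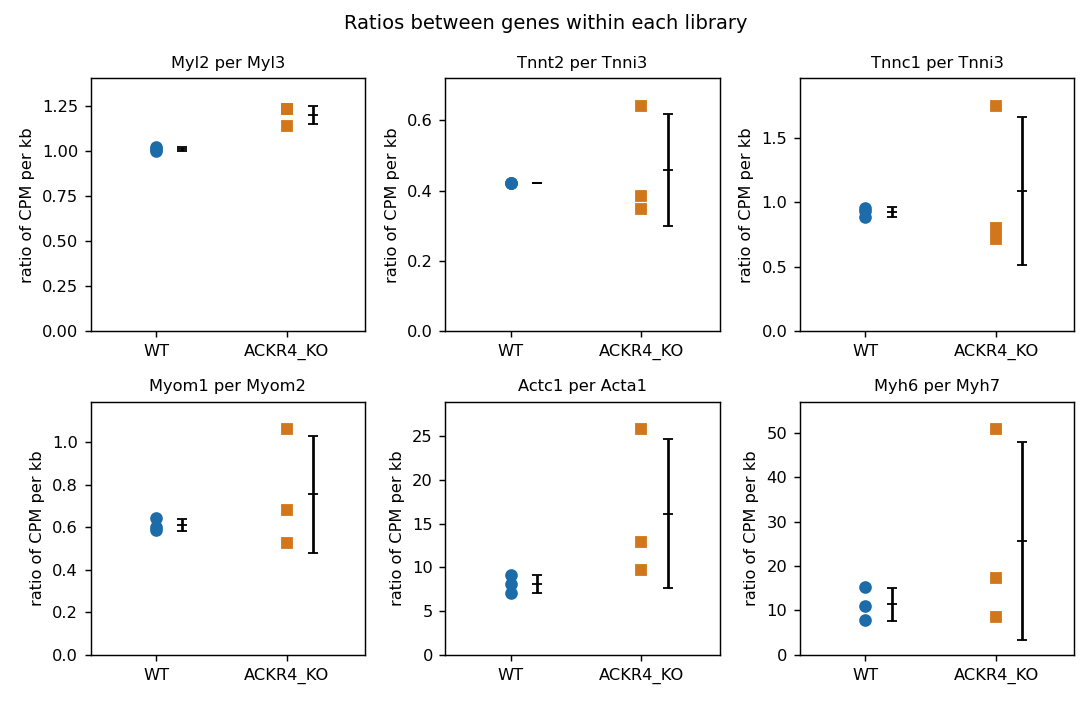
Ratio of CPM per kilobase between 2 genes in each library, in 6 panels with y axes from 0, with circles for WT, squares for ACKR4_KO and bars for the mean and SD (n = 3). The WT values of Tnnt2 per Tnni3 coincide near 0.422, the knockout values of Myl2 per Myl3 lie above those of WT, and 1 knockout library stands far from the other 2 in Tnnc1 per Tnni3 and in Myh6 per Myh7.

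The spread of the genes was larger among the knockout libraries. The coefficient of variation was higher in ACKR4_KO than in WT for 31 of the 34 genes, as it was for 86.2% of all genes of at least 100 CPM. Its median over the 34 genes was 9.60% in WT and 22.3% in ACKR4_KO, against 7.01% and 16.4% for the abundant genes. The exceptions were Myh6, Nexn and Myom1, with 10.1%, 6.97% and 5.25% in ACKR4_KO. The widest were Xirp2 at 53.9% and Ttn at 45.0%.

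Further sarcomere genes outside the 34 were read from a list of 39, of which 36 were tested. Of these, 22 had a fold change above 0 and 14 below, with a median of 0.08, and 0 passed by edgeR or DESeq2. At an unadjusted p under 0.05 there were 8 (7.45% of all genes in either direction), 7 higher and 1 lower. Obsl1 and Filip1, a cytoskeletal linker and a filamin-interacting protein, had log2 fold changes of 0.46 and 0.43. Trim54, a muscle ubiquitin ligase of microtubules and Z-discs, had 0.44. The most abundant were Ankrd1, a stretch-responsive protein that binds titin, and Hspb7, a small heat shock protein of muscle. Ankrd1 was at 2308, 2553 and 2363 CPM in WT and 1247, 1306 and 2795 CPM in ACKR4_KO, where 2 libraries were below all WT libraries and replicate 3 was above (log2 fold change -0.43). Hspb7 had 0.08.

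Regulators of sarcomere transcription and splicing were read from a list of 15, with 11 above 0, 4 below and a median of 0.19. None passed edgeR's test, and 1 was called by DESeq2. This was Rbm24, an RNA-binding splicing regulator of cardiac muscle, at 119, 113 and 109 CPM in WT and 165, 201 and 168 CPM in ACKR4_KO. The groups were far apart, and the log2 fold change was 0.65 (standard error 0.13, adjusted p = 0.462 by edgeR and 0.00385 by DESeq2). Rbm20, the splicing regulator of titin, was at 120, 120 and 124 CPM in WT and 172, 156 and 150 CPM in ACKR4_KO, again without overlap (log2 fold change 0.40, adjusted p = 0.606 by edgeR and 0.22 by DESeq2). Hand2 and Nkx2-5, transcription factors of the developing heart, had log2 fold changes of 0.59 and 0.32. Mef2a and Mbnl1, among the most abundant of the list, had 0.06 and -0.29. Tead1, which binds M-CAT elements, was at 117, 98.3 and 111 CPM in WT and 142, 126 and 130 CPM in ACKR4_KO (log2 fold change 0.28), and Srf, which binds CArG boxes, at 108, 113 and 115 CPM and 126, 141 and 118 CPM (0.19). Of the MEF2 factors, Mef2c went the other way without overlap, at 85.5, 77.2 and 83.4 CPM in WT and 74.9, 71.9 and 76.6 CPM in ACKR4_KO (-0.14). Mef2a and Mef2d overlapped between the groups (0.06 and 0.14).

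Cardiomyocyte genes outside the sarcomere, 14 in the list, were above 0 in 14 of 14 with a median of 0.29, and 0 passed by either tool. Ryr2, the calcium release channel, was at 528, 493 and 539 CPM in WT and 687, 686 and 781 CPM in ACKR4_KO, with no overlap (log2 fold change 0.47). Cox6a2 and Cox7a1, muscle forms of cytochrome c oxidase subunits, had 0.52 and 0.83. The most abundant, the calcium pump Atp2a2 and the oxygen store Mb, had 0.39 and 0.16. The median of the 34 sarcomere and Z-disc genes, 0.26, lay beside this value, and the difference was not tested. Summed over the list, the level was 21648, 22314 and 19313 CPM in WT and 23553, 32236 and 21030 CPM in ACKR4_KO, so ACKR4_KO replicate 3, which was high in sarcomere RNA, was within the WT range here.

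Markers of other cells were mostly below 0. Endothelial genes were below 0 in 10 of 10, with sums of 3125, 3148 and 3250 CPM in WT and 2411, 3218 and 2474 CPM in ACKR4_KO, macrophage and leukocyte genes in 9 of 10, with sums of 2086, 2486 and 2225 CPM and of 2213, 1532 and 1887 CPM, and smooth muscle and pericyte genes in 7 of 10, with sums of 1976, 2101 and 2235 CPM and of 1778, 2003 and 1624 CPM. None of these genes was at 0 reads throughout. Erythroid genes summed to 319, 298 and 263 CPM in WT and to 201, 639 and 137 CPM in ACKR4_KO, and atrial genes, whose list holds Nppa and Clu, to 1586, 1929 and 1637 CPM and to 1096, 968 and 3158 CPM. For all of these lists, their part in the values of the sarcomere genes was not tested. Mitochondrially encoded genes took 15.8% to 19.4% of the reads in WT and 16.0% to 21.4% in ACKR4_KO.

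**Figure D5:**
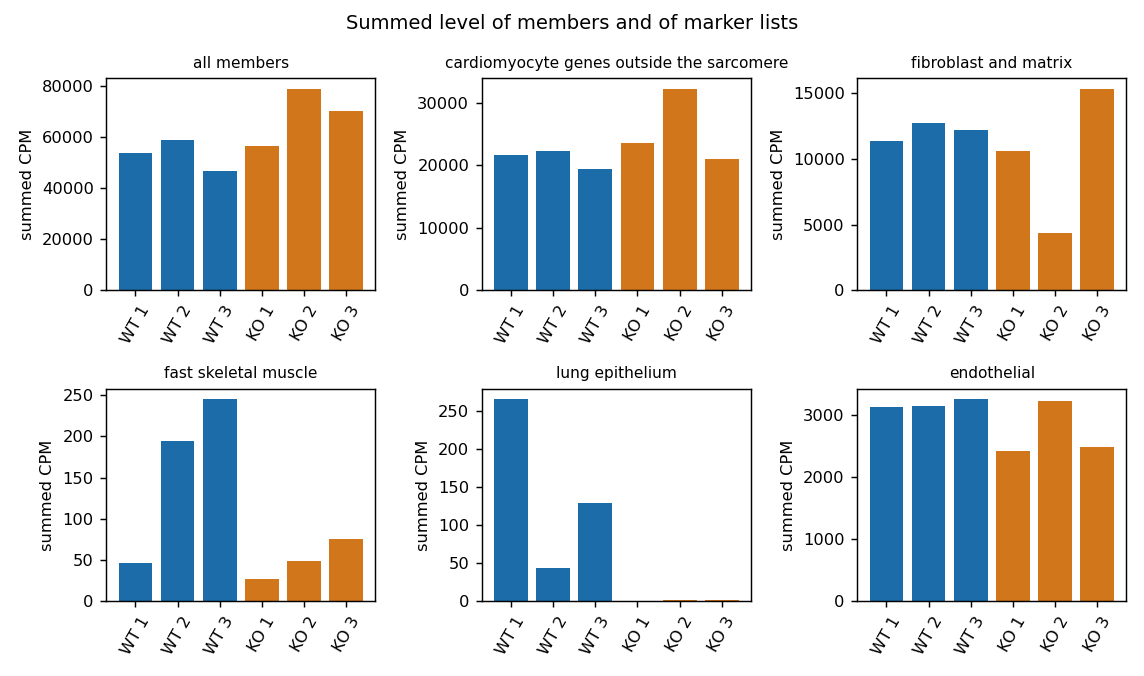
Summed CPM of the 34 genes and of 5 marker lists in each library, with bars from 0, WT in blue and ACKR4_KO in orange. The 34 genes reach 79062 and 70412 CPM in ACKR4_KO replicates 2 and 3 against 46937 to 58936 CPM in WT, while the fibroblast list is lowest in replicate 2 and highest in replicate 3, and the lung list is near 0 in ACKR4_KO.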

How the data were processed

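The deposited table holds raw counts of reads per gene, 1 column per library, as whole numbers. Per the submitters' processing notes, CASAVA 1.8.2, HISAT2 and HTSeq 0.6.0 were used with build mm10. A NEBNext Ultra kit was used on 1 ug of RNA, per the labels' protocols. Annotation release and strand setting were not given in the sources used here, and 11 of the 34 genes share exonic bases with a gene on the other strand. GENCODE M21 (GRCm38, which is mm10) gave symbols, coordinates and exonic lengths, and RefSeq (GRCm38.p6) the promoters.

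Genes were filtered with filterByExpr (minimum count 10, total 15), leaving 14406, and scaled by TMM (factors 0.891 to 1.05). The test was the robust quasi-likelihood test of edgeR 4.0.16 in R 4.3.3, two-sided, adjusted over all genes by Benjamini-Hochberg, with a threshold of 0.05. The standard error is the log2 fold change over the root of the F statistic. CPM used the TMM-scaled sizes. Groups and replicate numbers came from the sample descriptions, nothing states that the libraries are from separate animals, and p-values measure the spread between these libraries. Alternatives were RLE and upper-quartile factors, 2 other filters, DESeq2 1.42.0, limma-voom (limma 3.58.1), removal of mitochondrially encoded genes, the replicate block and each library left out. The procedure was tested on simulated data with known changes. There edgeR recovered 4.48% of the 1.5-fold, 49.3% of the 2-fold and 86.4% of the 4-fold changes, and 12 of its 105 calls were false. Changes of 1.5-fold or less were thus mostly missed. DESeq2 recovered 16.4%, 59.7% and 90.9%, and 38 of its 149 calls were false. The simulation gave each gene the same dispersion in both groups, whereas the spread here was larger in ACKR4_KO. Its shares need not hold for these libraries, where Ackr4 itself was not called by edgeR.

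The 34 genes, their classes and the further lists were chosen with earlier results of these data known. By the rule for named genes, each class gives library values for its most abundant gene, its 3 smallest p and the gene farthest across 0 from the class median, and each further list names, with a fold change, the genes past the threshold, or else the 4 smallest p and 2 most abundant. In the further lists, 2 genes that this rule names are not reported here. Other genes given library values were chosen after their values were seen, apart from Ackr4, the check of the labels.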

Additional observations from a re-analysis of the deposited data

How the results depend on the processing

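Of the 34 genes, 0 passed under any of the 14 alternatives. The count over all genes, 0 in the main test, was 24 without the filter on low counts, 39 with DESeq2, 6 with the replicate block and 0 to 1 with a library left out, and 0 under the others. Members with a fold change above 0 numbered 30 to 31 under other settings and 30 to 33 with a library left out. The median of the 34 genes lay between 0.25 and 0.27 under other settings and between 0.19 and 0.37 with a library left out, and the ranges with a library left out were 0.25 to 0.46 for the thick filament, 0.20 to 0.47 for the thin filament and 0.17 to 0.34 for the Z-disc. The M-band median, 0.03, was -0.02 with limma-voom and -0.02 with the replicate block, as was Myom2, and ranged from -0.17 to 0.23 with a library left out. Single genes whose sign turned with a library left out, none past the threshold in any fit, were Tcap (-0.15 to 0.27), Synpo2l (-0.19 to 0.11), Cmya5 (-0.05 to 0.17), Xirp2 (-0.58 to 0.18), Fhl2 (-0.12 to 0.27) and Myom2 (-0.17 to 0.26). The cause was not tested. Same-numbered libraries of the 2 groups had correlated deviations of 0.067, 0.053 and 0.125, so not every pair was over 0.1 and the numbers were not taken to pair the samples. Each library correlated best with its own number except ACKR4_KO replicate 2, at 0.063 with WT replicate 1 against 0.053. With the block 0 of the 34 genes passed. Depth limits Myom3 most, with 25 to 65 reads a library.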
